A study of Mus musculus with 34 samples.

Results

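In 4 of 14 mouse heart libraries, genes encoded by the mitochondrial genome took more than 55% of all read counts, and these 4 are called high libraries here. The other 10, all below 45%, are called low libraries. The share was the summed counts of the 17 genes whose symbols start with mt- over the total of the library. Several messages of the mitochondrial genome, such as mt-Co2, mt-Co3 and mt-Atp6, and some of its tRNAs are not among these 17. Because the share itself divided the libraries, it is given as a description, and the libraries were chosen by a measured value. The comparison of interest is across the nuclear genes, whose counts entered the choice only through the library total. The 2 classes are not a treatment. A p-value below says how a nuclear gene differed between them against the spread between libraries.

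The hearts came from C57BL/6J mice aged 20 to 22 months. Control mice ate a diet with 10% of calories from fat, HFCD mice a high-fat, high-calorie diet with 60%, and HFCD+FMD mice the same HFCD broken every 4 weeks by 5 days of a fasting mimicking diet, a low-calorie regime. From cycle 6 on, 2 days of control diet followed each fast, and hearts were taken 4 days after the end of the last of 11 cycles. The high libraries were HFCD+FMD replicates 3 and 5 and HFCD replicates 3 and 5. The low libraries were control replicates 2 to 6, HFCD+FMD replicates 1 and 2 and HFCD replicates 1, 2 and 4. No control library was high, so diet was held in every model unless stated. The labels list 17 heart libraries, of which 3 were not analysed here. No label names the animal behind a library. The series' design, with 18 mice in 3 groups, is the only sign that each heart library is a mouse of its own.

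Heart muscle cells are filled with mitochondria, whose own small genome encodes core subunits of the respiratory chain, their 2 ribosomal RNAs and a set of tRNAs. All other mitochondrial proteins, including the polymerase that reads that genome, come from nuclear genes. The transcripts of both strands are made as long precursors and cut into single RNAs. In total RNA from heart a large share of the reads is therefore mitochondrial.

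The share was 62.0% and 61.4% in HFCD+FMD replicates 3 and 5, and 71.5% and 59.8% in HFCD replicates 3 and 5. Among the low libraries it was 32.6%, 25.1%, 21.8%, 27.6% and 28.98% in control replicates 2 to 6, 30.1% and 29.5% in HFCD+FMD replicates 1 and 2, and 36.4%, 42.7% and 37.8% in HFCD replicates 1, 2 and 4. The member nearest to the upper threshold was HFCD replicate 5 at 59.8%, and the nearest library below was HFCD replicate 2 at 42.7%. Libraries held 16848195 to 47859170 counts. Counts of nuclear genes ranged from 6934172 in HFCD replicate 3, the shallowest, to 32900397 in HFCD+FMD replicate 2.

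**Figure D1:**
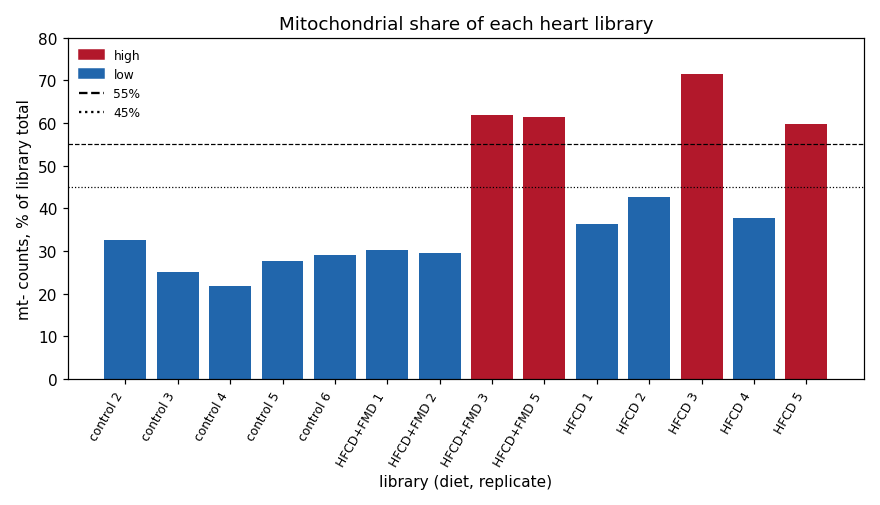
Bars show the counts of mt- genes as a percentage of all counts in each of the 14 heart libraries, red for high and blue for low, with the 55% and 45% thresholds as lines. The 4 high libraries lie between 59.8% and 71.5%, and the 10 low libraries between 21.8% and 42.7%.

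Several measures set single libraries or groups of libraries apart, and they bear on what follows. HFCD replicate 5 had 0.922 nuclear CPM (counts scaled to a common total of nuclear counts with TMM) of Xist, the RNA that coats the inactive X chromosome in female cells, against 104 to 326 in the other 13 libraries. It also held transcripts of atrium and fat. Control replicate 2 departed from the other libraries in the balance of GC-rich and GC-poor transcripts. In the authors' deposited log2 values of heart, a per-gene offset common to the libraries of a set had been subtracted, which divides the libraries into 3 sets, and 3 of the 4 high libraries (all but HFCD replicate 3) are in 1 set of 4 libraries, with HFCD+FMD replicate 2 as its low member. What the sets stand for is not given in the sources used here. Results are therefore given, where they change, without HFCD replicate 5 and with the sets in the model. The markers of ventricular heart muscle were abundant in every library, with Myh6, the main cardiac myosin of the mouse, at 18985 to 31572 CPM and Tnnt2, cardiac troponin T, at 7616 to 18271 CPM.

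Among the 17 mt- genes, the excess of mitochondrial counts lay in 6 protein-coding messages and much less in mt-Nd6 and the ribosomal RNAs. Messages not among the 17, such as mt-Co2, mt-Co3 and mt-Atp6, have no value here. Expressed per 1000 nuclear counts, mt-Cytb (cytochrome b of complex III) stood at 347.3 to 633.6 in the high libraries and 58.98 to 155.8 in the low ones, a ratio of medians of 4.05. mt-Co1 (the catalytic subunit of complex IV) stood at 242.4 to 317.3 against 65.28 to 156.2, a ratio of 2.60. The complex I subunits mt-Nd1, mt-Nd2, mt-Nd4 and mt-Nd5 had ratios of 4.48, 5.26, 3.76 and 5.18. For these 6 messages every high library lay above every low one. The rule fixed that direction for the sum, and no test is given.

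Other products of the same genome varied in how far they differed. mt-Nd6, a complex I message read from the opposite strand, stood at 1.24 to 2.66 per 1000 nuclear counts in the high libraries. In the low ones it stood at 0.647 to 2.00, and the ratio of medians was 1.24. The ribosomal RNAs mt-Rnr1 and mt-Rnr2, measured here after ribosomal RNA was depleted from the libraries, had ratios of medians of 1.34 and 1.38, with overlapping ranges. The 8 mitochondrial tRNA genes in the table each had under 1 count per 1000 nuclear counts in every library. mt-Te had the largest ratio of medians of the 17 genes, 12.04, at 0.00977 to 0.0254 per 1000 nuclear counts in the high and 0.00052 to 0.00182 in the low libraries, and mt-Tm had 2.80, both without overlap. The mt-Te value rests on few reads, down to 11 counts in a low library. The other 6 tRNA genes overlapped, with ratios of 3.03 for mt-Tt, 2.07 for mt-Tq, 1.69 for mt-Ti, 0.509 for mt-Tl1, 0.504 for mt-Tw and 0.371 for mt-Tp, and mt-Tq and mt-Tt fell to 6 and 8 counts in a low library.

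The make-up of the mitochondrial counts, over the 17 counted genes, therefore differed between the classes. mt-Co1 took 15.48%, 15.87%, 12.67% and 16.31% of the mitochondrial counts in HFCD+FMD replicates 3 and 5 and HFCD replicates 3 and 5, and between 19.85% and 24.43% in the low libraries. mt-Nd2 took 14.79% to 15.59% in the high libraries and 9.42% to 12.26% in the low ones. mt-Rnr2 took 1.548% to 1.766% against 2.946% to 7.378%. mt-Cytb held a similar share in both, 21.79% to 25.31% against 20.59% to 24.76%. The strand setting of the counting is not given in the sources used here, so reads from overlapping genes on opposite strands cannot be told apart.

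**Figure D2:**
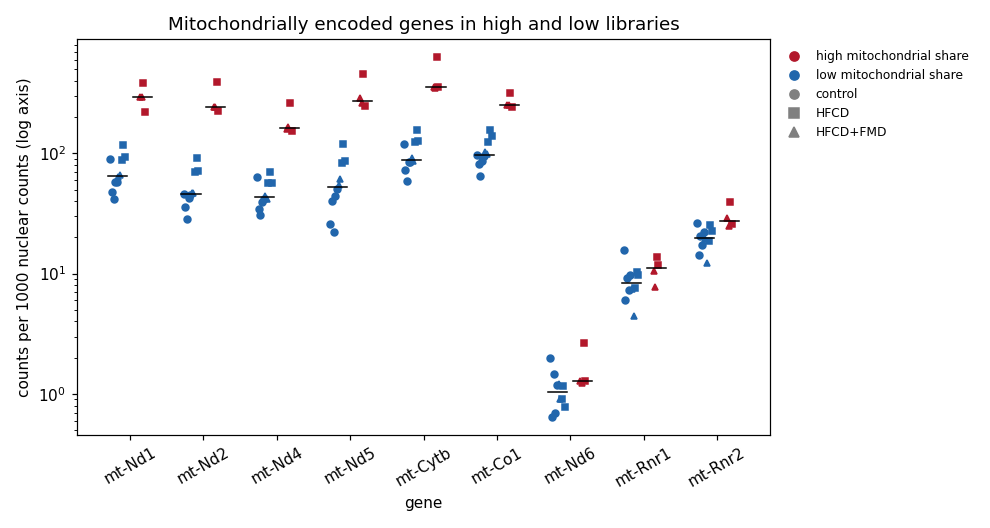
Points are single heart libraries, with counts of 9 mitochondrially encoded genes per 1000 nuclear counts on a log axis, red for high and blue for low libraries, and black lines are medians. The 6 messages on the left separate the classes completely, whereas mt-Nd6, mt-Rnr1 and mt-Rnr2 overlap.

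Nuclear gene expression differed widely between the classes. Of 13210 nuclear genes tested, 1798 (13.6%) were higher and 1993 (15.1%) lower in the high libraries, together 28.7% at an adjusted p below 0.05 (edgeR's quasi-likelihood test with diet in the model, Benjamini-Hochberg adjustment). Of these, 404 were higher and 271 lower by more than 2-fold. All 4 high libraries lay above all 10 low ones for 972 genes (7.36%) and below them for 1281 genes (9.7%). With the 3 library sets in the model 1076 genes were higher (8.15%) and 1273 lower (9.64%), and 989 and 1194 of them were among the calls above, none in the opposite direction. Without HFCD replicate 5 the counts were 1844 (14.1%) and 2205 (16.8%), together 30.9%. In the fit of HFCD libraries alone, 2 high against 3 low, 904 genes passed (7.2%), 547 higher (4.36%) and 357 lower (2.84%), and in HFCD+FMD libraries alone, 2 against 2, 3802 passed (30.2%). Without HFCD+FMD replicate 5 the count over all diets was 2522.

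The genes with the smallest p-values separated the classes cleanly in both diets. Esrra encodes a nuclear receptor that drives genes of oxidative metabolism. It stood at 43.1 and 38.3 CPM in HFCD+FMD replicates 3 and 5 and at 27.2 and 51.4 CPM in HFCD replicates 3 and 5, against 109.9 to 176.9 CPM (median 133.3) in the low libraries (log2 fold change -1.65 with an SE of 0.16, adjusted p = 5.269e-05). Every high library was below every low library, and the highest adjusted p in edgeR fits without 1 library was 0.000525. Polr2a encodes the largest subunit of RNA polymerase II. Its values were 262.3, 247.1, 439.7 and 276.6 CPM in the same order against 79.8 to 133.9 CPM (log2 fold change 1.51 with an SE of 0.15, adjusted p = 5.269e-05). Nono, a nuclear RNA-binding protein, stood at 93.3 to 141.1 CPM against 40.3 to 58.7 CPM. Atg4d, a protease of the autophagy pathway, was at 18.8 to 24.4 CPM against 48.7 to 77.2 CPM. Polr2a, Nono and Atg4d were chosen after their values were seen.

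Regulators of mitochondrial number did not move as a block. Among 17 regulators of mitochondrial biogenesis tested, 2 were higher and 5 lower, with a median log2 fold change of 0.09 beside 0.006 over all nuclear genes. Each list count below is read against the 13.6% higher and 15.1% lower among all nuclear genes tested. Esrra led the falls. Nrf1, a transcription factor for respiratory chain genes, stood at 9.34 to 12.7 CPM in the high libraries and 14.1 to 17.4 CPM in the low ones (log2 fold change -0.43, adjusted p = 0.01413). Sirt3, the main deacetylase of the mitochondrial matrix, had 23.2, 21.3, 14.6 and 23.2 CPM against 27.7 to 45.5 CPM (-0.77, adjusted p = 0.00203). Gabpb1, a subunit of the factor GABP that also acts on respiratory genes, went the other way, with 32.1, 31.9, 32.8 and 22.0 CPM against 15.8 to 19.6 CPM (0.70, adjusted p = 0.001332). All 4 genes had no overlap between the classes. Ppargc1a, the coactivator that partners Esrra, stood at 251.6 to 745.8 CPM in the high and 141.1 to 359.5 CPM in the low libraries and did not pass (log2 fold change 0.61 with an SE of 0.33, adjusted p = 0.1803).

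Of 23 genes for mitochondrial DNA upkeep and transcription, which copy and read the mitochondrial genome, 3 were higher and 3 lower, with a median of -0.008. These shares are close to those of all nuclear genes. Polg, the catalytic subunit of the mitochondrial DNA polymerase, stood at 47.5, 45.1, 54.4 and 62.7 CPM in HFCD+FMD replicates 3 and 5 and HFCD replicates 3 and 5, against 73.6 to 109.8 CPM (log2 fold change -0.60 with an SE of 0.11, adjusted p = 0.002012). Every high library lay below every low one. Tfam, which packages the mitochondrial genome and starts its transcription, stood at 42.3 to 59.5 CPM in the high and 49.5 to 70.04 CPM in the low libraries (-0.23, SE 0.09, adjusted p = 0.0855). Polrmt, the mitochondrial RNA polymerase, had -0.33 (SE 0.18, adjusted p = 0.1898). Neither of these last 2 passed. Tfb2m, a transcription initiation factor, was higher at 0.32 (adjusted p = 0.04088), with overlapping ranges, and did not pass with the sets in the model (adjusted p = 0.243).

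Among 29 genes for mitochondrial RNA processing and stability, 4 were higher and 7 lower (median -0.002), and 2 and 3 both with the sets in the model and with the GC trend described below taken out. Rexo2, an exonuclease that clears short RNA fragments, stood at 106.8, 110.5, 100.4 and 86.5 CPM in the high libraries against 42.9 to 78.1 CPM (log2 fold change 0.91 with an SE of 0.15, adjusted p = 0.0009864). Pde12, which removes poly(A) tails in mitochondria, stood at 26.3 to 30.8 CPM against 16.3 to 22.8 CPM (0.44, adjusted p = 0.004584). Both were higher in each high library than in any low one. Fastk, whose family handles mitochondrial transcripts, stood at 161.3 to 214.5 CPM against 221.1 to 335.9 CPM (-0.63, adjusted p = 0.004262). Lrpprc, which stabilises mitochondrial messages, stood at 210.3 to 357.4 CPM against 182.5 to 327.6 CPM and did not pass (-0.11, SE 0.15, adjusted p = 0.6132).

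The nuclear subunits of the respiratory chain did not follow the mitochondrially encoded ones. Of 79 tested, 5 were higher and 17 lower, with a median log2 fold change of -0.30. With the sets in the model 2 were higher and 6 lower (median -0.32), a smaller share lower than the 9.64% among all nuclear genes in that fit. Cyc1, cytochrome c1 of complex III, stood at 340.3 and 273.5 CPM in HFCD+FMD replicates 3 and 5 and at 193 and 314.7 CPM in HFCD replicates 3 and 5, against 587 to 1241 CPM with a median of 787.2 (log2 fold change -1.44 with an SE of 0.18, adjusted p = 0.0001665). Uqcrfs1, the Rieske iron-sulphur protein of the same complex, stood at 479.1, 402.8, 289.1 and 440.3 CPM against 606.2 to 1109 CPM (-1.05, SE 0.16, adjusted p = 0.0006259). Both thus lay well below the low range in every high library, while mt-Cytb, their partner in complex III, was higher by the rule. Uqcrc2, a core protein of that complex, stood at 1006 to 1392 CPM against 993.3 to 1377 CPM (-0.05, SE 0.11, adjusted p = 0.7707).

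In complex I, 3 of 37 nuclear subunits were higher and 7 lower, and 1 and 2 with the sets in the model. Ndufv1, which binds NADH, stood at 450.9, 416.5, 339.3 and 507.9 CPM against 636.3 to 1098 CPM (log2 fold change -0.77 with an SE of 0.14, adjusted p = 0.00149). Ndufs4 was lower by a similar factor (-0.66, adjusted p = 0.01022) and Ndufa1 higher (0.88, adjusted p = 0.009874), both with overlapping ranges. With the sets in the model Ndufs4 did not pass (adjusted p = 0.0755). Ndufs1, the largest subunit, did not pass (-0.12, SE 0.12, adjusted p = 0.4702). In complex II, which has no mitochondrially encoded subunit, 2 of 4 genes were lower. Sdhd, a membrane anchor, stood at 359.6, 326.4, 223 and 260.8 CPM against 368.2 to 555.2 CPM (-0.73, SE 0.11, adjusted p = 0.0005016), and Sdha, the flavoprotein, did not pass (-0.24, SE 0.12, adjusted p = 0.1552).

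In complexes III to V, 2 of 38 nuclear genes were higher and 8 lower, and 1 and 3 with the sets in the model. Atpif1, the inhibitor of the ATP synthase, was higher at 151.4 to 231.2 CPM against 78.4 to 192 CPM (log2 fold change 0.97 with an SE of 0.19, adjusted p = 0.002664). Only control replicate 2 among the low libraries reached into its high range. Cox4i1 of complex IV lay below the low range in every high library, at 733.2 to 1135 CPM against 1183 to 3167 CPM, but did not pass (-0.57, SE 0.22, adjusted p = 0.06483). Without HFCD replicate 5 it passed (adjusted p = 0.0286). Atp5a1 of the ATP synthase had -0.30 (SE 0.11, adjusted p = 0.05524).

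**Figure D3:**
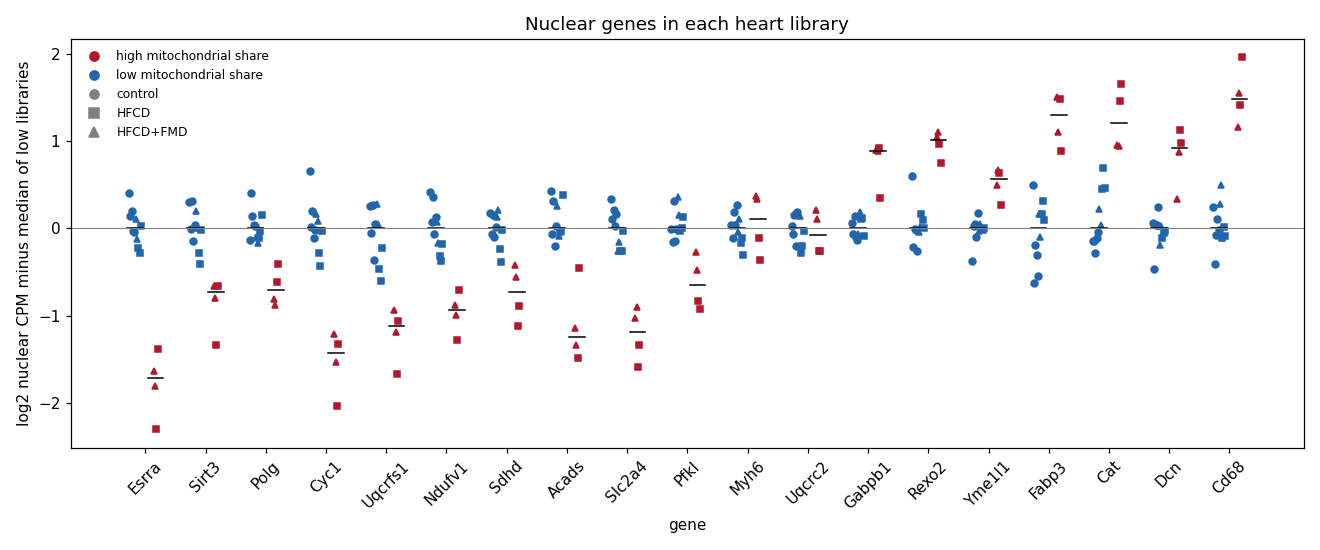
Points are single heart libraries, plotted for 19 nuclear genes as log2 nuclear CPM minus the median of the 10 low libraries, with short black lines at the class medians. Esrra, Cyc1 and Uqcrfs1 lie below the low libraries in all 4 high ones, Gabpb1, Rexo2, Fabp3, Cat and Cd68 above them, and Myh6 and Uqcrc2 overlap.

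Of 76 mitochondrial ribosomal protein genes 6 were higher and 17 lower (median -0.20), and of 28 genes for protein import into mitochondria 0 were higher and 7 lower (median -0.28). With the sets in the model the counts were 1 higher and 8 lower for the ribosomal proteins, close to the share of all genes that were lower in that fit, and 0 and 6 for import. Mrpl18 of the large ribosomal subunit stood at 54.5, 48.4, 40.3 and 31.1 CPM against 66.9 to 110.9 CPM (log2 fold change -1.02 with an SE of 0.11, adjusted p = 8.346e-05), and Mrps11 of the small one at 9.20 to 10.7 CPM against 16.8 to 34.5 CPM (-0.996). Tomm40l, a pore protein of the outer membrane, stood at 45.8 to 64.5 CPM against 81.2 to 124.9 CPM (-0.86, adjusted p = 0.0004425), and Timm17b of the inner membrane at 14.1 to 16.4 CPM against 23.9 to 39.5 CPM (-0.83). Mrps36, which shares the symbol prefix of Mrps11, went the other way, at 13.8 to 18.6 CPM against 2.79 to 8.89 CPM (1.84, adjusted p = 0.001028). It has processed copies in the genome, and reads may be divided between them.

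Among 17 mitochondrial quality-control genes 3 were higher and 3 lower. Htra2, a protease of the space between the membranes, stood at 12.0, 11.3, 7.81 and 13.8 CPM against 19.4 to 29.5 CPM (log2 fold change -0.94, adjusted p = 0.0006837). Yme1l1, a protease of the inner membrane, stood at 171.5, 193.3, 188.9 and 146.3 CPM against 93.8 to 137 CPM (0.52, adjusted p = 0.004727). These 2 proteases thus moved in opposite directions without overlap. Of 19 genes for fission, fusion and mitophagy, 3 were higher and 6 lower, and 1 and 5 with the sets in the model. Mief2, which recruits the fission machinery, stood at 13.9 to 15.3 CPM against 27.3 to 36.9 CPM (-1.13, SE 0.12, adjusted p = 5.269e-05). Fkbp8, an outer membrane receptor for mitophagy, stood at 42.9 to 71 CPM against 97.5 to 172.3 CPM (-0.98, adjusted p = 0.0007064). Pink1, the kinase that marks damaged mitochondria, was lower at -0.62 (adjusted p = 0.006971), with HFCD replicate 5 at 688.9 CPM inside the low range.

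In each of 3 fuel lists more genes were lower than higher. Of 19 glycolysis genes 0 were higher and 11 lower, with a median log2 fold change of -0.58, and the count was 9 lower with the sets in the model and 10 without HFCD replicate 5. With the GC trend of each library taken out 1 was higher and 7 lower (median -0.365); the median GC content of these transcripts was 54%. Slc2a4, the insulin-responsive glucose transporter, stood at 268.5, 295.1, 183 and 216.9 CPM against 457.5 to 693.7 CPM (-1.04, SE 0.13, adjusted p = 0.0001336). Pfkl, a phosphofructokinase, stood at 92.3 to 144.6 CPM against 157.1 to 222.9 CPM (-0.78, adjusted p = 0.000511). Eno1, an enolase with a near-identical gene copy, stood at 13.8 to 19.7 CPM against 22.5 to 42.5 CPM (-0.97). None of the 3 overlapped between the classes.

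Of 25 tricarboxylic acid cycle genes 3 were higher and 9 lower (median -0.24), and 1 and 6 with the sets in the model. Idh3a, a subunit of isocitrate dehydrogenase, stood at 554.6 to 805.2 CPM against 829.9 to 1096 CPM (log2 fold change -0.51, adjusted p = 0.006227). Mpc2, a subunit of the pyruvate carrier of the inner membrane, stood at 93.7 to 163.6 CPM against 191.3 to 412.1 CPM (-0.98, adjusted p = 0.001969). Of 30 fatty acid oxidation genes 2 were higher and 8 lower (median -0.25). Acads, the short-chain acyl-CoA dehydrogenase, stood at 99.1, 86.7, 78.2 and 159 CPM against 189.4 to 293 CPM (-1.15, SE 0.20, adjusted p = 0.001168), and Echs1, the next enzyme of the spiral, had -0.82 (adjusted p = 0.001444). Fabp3, the fatty acid carrier of heart cytosol, was higher at 3627, 2752, 3587 and 2376 CPM against 830.2 to 1810 CPM (1.14, SE 0.21, adjusted p = 0.001689). Fabp3 has a processed copy that may share its reads. Pdk4, which shuts pyruvate out of the cycle, was at 6330 CPM in HFCD replicate 5 and 609.2 to 796.5 CPM in the other high libraries, inside the low range of 385.3 to 2874 CPM, and did not pass (adjusted p = 0.6004).

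Summed over a list, these shares were not past the threshold. Over the 4 high and 5 low HFCD and HFCD+FMD libraries 25 properties were compared by an exact two-sided permutation test. The smallest possible p of that test is 0.0159, and 0 passed after Benjamini-Hochberg adjustment. Properties at that smallest p had an adjusted p of 0.0661, so even full separation of the classes did not pass here. The count of 0 therefore does not show that the shares were alike. Glycolysis genes took 0.743% ± 0.093 of nuclear counts (SD, n = 4) in the high and 1.02% ± 0.081 (n = 5) in the low libraries, and tricarboxylic acid cycle genes 2.18% ± 0.197 against 2.52% ± 0.079 (exact permutation p = 0.0159 and adjusted p = 0.0661 for each). In both cases every high library was below every low one. The mean GC content of nuclear counts and the shares of smooth muscle, adipocyte and epicardial genes had the same p and adjusted p. Fatty acid oxidation genes, the third fuel list, were not lower in sum, at 2.41% ± 0.497 against 2.37% ± 0.174 (exact permutation p = 0.857). Nuclear respiratory chain genes took 3.71% ± 0.413 against 4.32% ± 0.401 (exact permutation p = 0.0794). Gm42418, a transcript that overlaps a ribosomal RNA repeat, took 0.194% ± 0.093 against 0.657% ± 0.630 (exact permutation p = 0.0794). Total counts (exact permutation p = 0.381) and nuclear counts (p = 0.3175, same exact test) did not separate the classes. With control libraries included, 4 against 10, 9 of the 25 properties passed. These permutation tests do not hold diet. All control libraries are low, so with them included diet and class cannot be told apart.

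Of 24 ventricular sarcomere genes, which form the contractile apparatus, 1 was higher and 6 lower, with a median log2 fold change of 0.09, and 0 and 3 passed with the sets in the model. Mybpc3, cardiac myosin-binding protein C, stood at 2967, 2576, 1913 and 1583 CPM against 3184 to 5078 CPM (-0.87, SE 0.14, adjusted p = 0.0007709). Myl3, the ventricular essential light chain, stood at 1956 to 3082 CPM against 3685 to 8440 CPM (-0.88, adjusted p = 0.002872). Both lay below the low range in every high library. Myh6 (0.12, SE 0.12, adjusted p = 0.4958), Ttn, the giant spring protein titin (0.07, SE 0.17, adjusted p = 0.7844), and Tnnt2 (0.10, SE 0.20, adjusted p = 0.7309) did not pass.

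Of 28 genes for calcium handling and ion channels 4 were higher and 4 lower, and 2 and 1 with the GC trend taken out. Jph2, which holds the membranes of the calcium release unit together, stood at 300.1 to 485.1 CPM against 596.8 to 937.7 CPM (log2 fold change -0.80, adjusted p = 0.001886). Kcnj11, the pore of the ATP-sensitive potassium channel, stood at 120.2 to 180.2 CPM against 196.3 to 276.9 CPM (-0.61, adjusted p = 0.0007857). Ryr2, the calcium release channel, stood at 2257 to 2946 CPM against 1158 to 3571 CPM and did not pass (-0.10, SE 0.23, adjusted p = 0.7714). Atp2a2, the calcium pump, did not pass either (-0.28, SE 0.19, adjusted p = 0.2882).

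Among connective tissue and macrophage genes more were higher than lower in the high libraries. In whole-tissue RNA, more cells of a type and more RNA per cell cannot be told apart. Of 32 fibroblast and extracellular matrix genes 11 were higher and 1 lower, with a median log2 fold change of 0.34, and the list took 0.542% to 0.834% of nuclear counts in the high and 0.535% to 0.664% in the low libraries. Dcn, a proteoglycan that binds collagen, stood at 973.6, 1407, 1675 and 1521 CPM against 558.2 to 910.5 CPM (0.93, SE 0.15, adjusted p = 0.0007521). Col1a1, a chain of type I collagen, stood at 208.4 to 242 CPM against 90.2 to 152.3 CPM (0.83, SE 0.14, adjusted p = 0.0009608). With the sets in the model 5 of the list were higher and 1 lower, and without HFCD replicate 5 the counts were 8 and 2. The summed share of the list did not pass among HFCD and HFCD+FMD libraries (exact permutation p = 0.111, adjusted p = 0.214).

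Of 20 macrophage and monocyte genes 7 were higher and 0 lower (median log2 fold change 0.57), but this rested in large part on HFCD replicate 5, without which 4 were higher and 1 lower (median 0.22). With the sets in the model 2 were higher and 0 lower (median 0.31), near the 8.15% of all nuclear genes that were higher in that fit. The list took 0.139% of nuclear counts in HFCD replicate 5 and 0.0539% to 0.0852% in the other high libraries. In the low ones it took 0.0520% to 0.0781%. Its summed share did not pass among HFCD and HFCD+FMD libraries (exact permutation p = 0.0952, adjusted p = 0.198). Cd68, a lysosomal protein of macrophages, stood at 26.4, 34.6, 31.4 and 45.9 CPM against 8.90 to 16.7 CPM (1.41, SE 0.18, adjusted p = 0.00018). Itgam, an integrin of myeloid cells, stood at 6.46 to 11.1 CPM against 2.41 to 5.26 CPM (1.34, adjusted p = 0.002131). Both passed also without HFCD replicate 5 (adjusted p = 0.000213 and 0.00666). Csf1r, the receptor that defines the lineage, was at 68.0 CPM in HFCD replicate 5 and 31.3 to 38.3 CPM in the other 3, against 36.7 to 53.9 CPM in the low libraries, and did not pass (0.13, SE 0.18, adjusted p = 0.6043).

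Endothelial genes showed no shared direction, with 2 of 20 higher and 5 lower and a median of 0.02, and 1 and 3 with the sets in the model. Tie1, a receptor of blood vessel cells, stood at 60.9 to 68.5 CPM against 87.3 to 132.3 CPM (log2 fold change -0.76, adjusted p = 0.0008804), and Esam, an adhesion molecule of their junctions, at 34.7 to 50.3 CPM against 72.8 to 144.9 CPM (-0.85, adjusted p = 0.003246). Pecam1, another junction protein of the same cells, was higher (0.31, adjusted p = 0.03699), but not without HFCD replicate 5 (adjusted p = 0.0904) or with the sets in the model (adjusted p = 0.173).

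Of 21 genes that protect against oxidants 3 were higher and 6 lower, with a median of -0.04, and the 3 that rose were Cat, Gclc and Gpx3. Cat, the peroxisomal catalase, stood at 766.5, 759.5, 1083 and 1246 CPM in HFCD+FMD replicates 3 and 5 and HFCD replicates 3 and 5, against 325.6 to 639.9 CPM (log2 fold change 0.93 with an SE of 0.10, adjusted p = 7.686e-05). Gclc, the first enzyme of glutathione synthesis, stood at 34.02 to 40.6 CPM against 16.7 to 30.3 CPM (0.73, adjusted p = 0.001056). Gpx3, a secreted glutathione peroxidase, stood at 596.3, 689.9, 1397 and 3132 CPM against 276.3 to 504.2 CPM (1.90, SE 0.32, adjusted p = 0.001148). All 3 separated the classes completely. Hspb6, a small heat shock protein of muscle, stood at 4860, 3930, 4460 and 2953 CPM against 978.7 to 2395 CPM (1.31, SE 0.24, adjusted p = 0.001482), while its list of 20 chaperones had 3 higher and 3 lower.

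The GC content of the transcripts moved with the direction of the difference. Among 9181 protein-coding genes with a mean log2 CPM above 3, those with a transcript of at most 42% GC were higher in 289 and lower in 26 of 1139 cases, and those above 58% were higher in 37 and lower in 347 of 755. The median log2 fold change passed from 0.20 in the first bin to -0.42 in the last. Across these genes, which are not independent replicates, Spearman's rho of log2 fold change was -0.44 with GC content and 0.13 with transcript length. The transcripts of genes that rose had a median GC content of 46.3% and those of genes that fell 54.8%.

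Yme1l1 and Dcn have GC-poor transcripts and rose, and Fkbp8 and Cyc1 have GC-rich transcripts and fell. Esrra and Cat had differences that stayed nearly the same when the GC trend was taken out. For illustration, 60 bases from the middle of the coding sequence are printed for each of these genes. They were read from GENCODE M21 transcripts (GRCm38), run 5′ to 3′ in the sense of the message, and have G and C in capitals.
Yme1l1, coding bases 1043 to 1102 of 2145: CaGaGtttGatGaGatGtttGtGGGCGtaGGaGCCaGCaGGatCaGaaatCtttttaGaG
Dcn, coding bases 502 to 561 of 1062: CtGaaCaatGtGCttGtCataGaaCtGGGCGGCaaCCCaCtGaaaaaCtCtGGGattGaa
Fkbp8, coding bases 575 to 634 of 1209: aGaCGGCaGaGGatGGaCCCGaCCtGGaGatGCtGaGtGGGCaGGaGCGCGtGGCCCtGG
Cyc1, coding bases 458 to 517 of 975: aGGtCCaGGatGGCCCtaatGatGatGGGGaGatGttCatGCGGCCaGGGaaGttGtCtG
Esrra, coding bases 604 to 663 of 1266: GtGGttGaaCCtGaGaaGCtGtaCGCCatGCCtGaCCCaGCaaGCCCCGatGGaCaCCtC
Cat, coding bases 761 to 820 of 1581: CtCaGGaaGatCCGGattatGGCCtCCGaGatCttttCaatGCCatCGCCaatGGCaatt

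Over the whole coding sequence the GC content was 40.1% for Yme1l1 (chr2:23156369-23199260, plus strand), 47.6% for Dcn (chr10:97479609-97518143, plus strand), 61.6% for Fkbp8 (chr8:70527724-70535328, plus strand) and 59.2% for Cyc1 (chr15:76343523-76346260, plus strand). It was 61.8% for Esrra (chr19:6910977-6921813, minus strand) and 51.8% for Cat (chr2:103453849-103485160, minus strand). The coordinates span each gene. The printed stretches are too short to show the trend, and the stretch of Esrra is richer in G and C than that of Cyc1. The stretch of Dcn is close to that of Cat in GC content. Yme1l1, Dcn, Fkbp8 and Cyc1 were chosen for their GC content and direction and are no evidence for the trend. The trend itself was measured on the longest transcript, untranslated ends included, and there Esrra had 50.3% GC and Cat 48.7%.

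The trend was carried unequally by the libraries. The measure was the median log2 deviation in a bin from each gene's mean over the 10 low libraries. HFCD+FMD replicates 3 and 5 and HFCD replicate 3 passed from 0.29, 0.37 and 0.35 in the lowest GC bin to -0.48, -0.61 and -0.60 in the highest. HFCD replicate 5 passed only from 0.07 to -0.25. That was near 2 low libraries, HFCD+FMD replicate 2 (0.12 to -0.152) and control replicate 6 (0.108 to -0.193). Control replicate 2 ran the opposite way, from -0.29 to 0.35. With the GC trend of each library taken out, 1709 genes were higher (12.9%) and 1415 lower (10.7%), and 64.3% of the calls were shared with the fit above. Esrra (log2 fold change -1.62, adjusted p = 3.995e-05) and Cat (0.91) hardly moved, and Rexo2 went from 0.91 to 0.78. The longest transcripts of Esrra and Cat, at 50.3% and 48.7% GC, lie near the median of 49.67% over all tested genes. The removed trend is small there, so this fit could move these 2 genes only little. Cyc1 had -1.002 and Fkbp8 -0.49, both still passing, while Pink1 (-0.26, adjusted p = 0.1235) and Jph2 (-0.32, adjusted p = 0.2381) did not pass. What sets the GC trend was not tested.

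**Figure D4:**
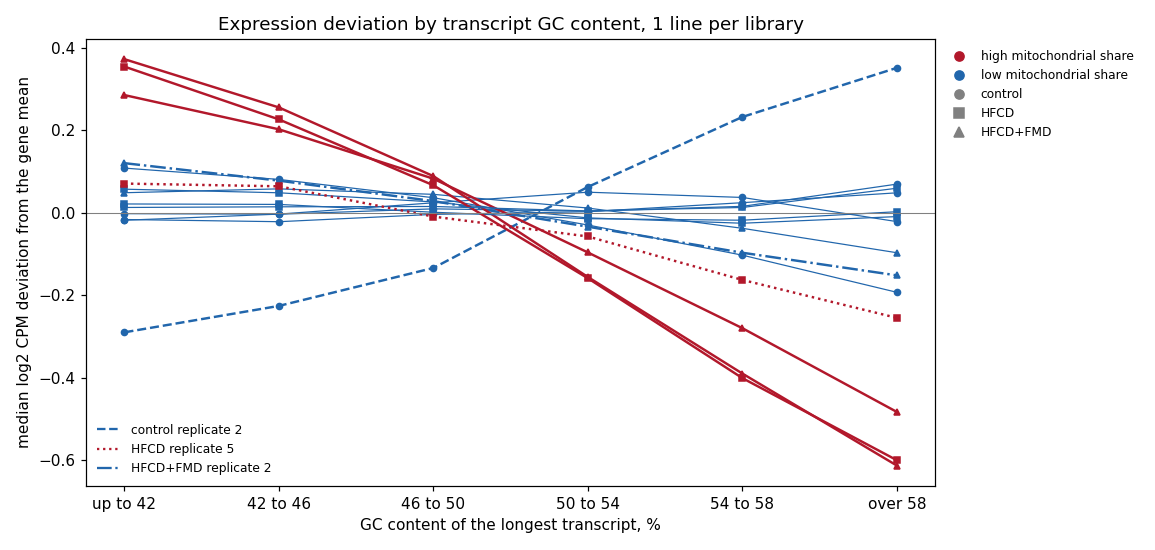
Each line is 1 heart library, red for high and blue for low. It shows the median log2 CPM deviation from each gene's mean over the 10 low libraries, in 6 bins of transcript GC content. HFCD+FMD replicates 3 and 5 and HFCD replicate 3 fall most steeply, the dotted HFCD replicate 5 less, and the dashed control replicate 2 climbs.

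Sln, Mybphl and Fgf12, genes of atrial muscle, were abundant in 2 of the high libraries and near 0 in the other 2. Sln, the atrial regulator of the calcium pump, was at 59.1 CPM in HFCD replicate 3 and 285.1 CPM in HFCD replicate 5, against 0 and 0.166 CPM in HFCD+FMD replicates 3 and 5 and at most 6.73 CPM in the low libraries. Mybphl, a myosin-binding protein of the atrium, was at 45.5 and 125.2 CPM against 0.0937 and 0.331 CPM in the same order. Fgf12, a modulator of sodium channels, was at 32.8 and 43.9 CPM against 0.656 and 0.608 CPM. Nppa, the atrial natriuretic peptide, was at 551.8 and 2222 CPM against 31.4 and 15.02 CPM, and 9.17 to 135 CPM in the low libraries, so that the 2 HFCD+FMD libraries lay inside the low range.

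Of the 13 atrial and natriuretic genes 8 were called higher in the high libraries and 0 lower, and the list took 0.309% and 0.949% of nuclear counts in HFCD replicates 3 and 5, 0.128% and 0.132% in the 2 HFCD+FMD libraries, and 0.0945% to 0.164% in the low ones. Both HFCD+FMD libraries thus lay inside the low range. Without HFCD replicate 5, 4 were called, and 4 with the sets in the model. Bmp10, a growth factor of the right atrium, was at 1474 CPM in HFCD replicate 5 and at most 4.58 CPM elsewhere. The piece of heart that was taken is not given in the labels. The part of atrial tissue in the results above was not tested.

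Adipoq, Cfd and Plin1, genes of fat cells, stood out in HFCD replicate 5. Adipoq, the adipocyte hormone adiponectin, was at 16.1 CPM there, 0.166 to 0.562 CPM in the other high libraries and 0.127 to 5.30 CPM in the low ones. Cfd, the adipocyte protease adipsin, was at 48.4 CPM against 0.387 to 0.656 and 0.190 to 9.45 CPM, and Plin1, which coats lipid droplets, at 9.80 CPM against 0 to 0.976 and 0 to 5.21 CPM. Of 14 adipocyte genes 7 were called higher and 1 lower in all libraries, 1 and 1 without HFCD replicate 5, and 0 and 1 with the sets in the model. The list took 1.48%, 1.57%, 1.44% and 1.83% of nuclear counts in HFCD+FMD replicates 3 and 5 and HFCD replicates 3 and 5, 0.966% to 1.19% in the low HFCD and HFCD+FMD libraries (the exact permutation p of 0.0159 and adjusted p of 0.0661 given above) and 1.04% to 1.51% in the control libraries. Control replicate 2 reached into the high range, and with all 14 libraries the adjusted p was 0.025 by the same exact test, which does not hold diet. Most of that share came from Lpl, the lipoprotein lipase that heart muscle also makes, with a mean of 13960 CPM in the high and 10170 CPM in the low libraries (log2 fold change 0.57, adjusted p = 0.007764, and 0.05386 with the sets in the model). Haemoglobin Hba-a1 was at 158.3 CPM in that library, 41.04 to 55.7 CPM in the other high ones and 48.7 to 229.6 CPM in the low ones.

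Processed pseudogenes, copies of messages written back into the genome, followed the library sets and not the classes. They took 0.221%, 0.218% and 0.216% of nuclear counts in the 3 high libraries of the set that holds most of them, 0.188% in its low library HFCD+FMD replicate 2, and 0.0448% in HFCD replicate 3. The other low libraries lay between 0.0281% and 0.0491%. Of 211 processed pseudogenes tested 79 were called higher and 16 lower (median log2 fold change 2.01), and with the sets in the model 14 and 20 (median 0.03). A further 10 predicted nuclear genes have transcripts that match mitochondrial ones over at least 100 bases at 90% identity or more. Their reads cannot be told from mitochondrial reads, which the rule used, so their values are a description with no test, although they are among the 13210 genes counted above. Gm4076, for example, stood at 19.8 ± 1.84 CPM against 2.55 ± 1.64 CPM (SD, n = 4 and n = 10).

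**Figure D5:**
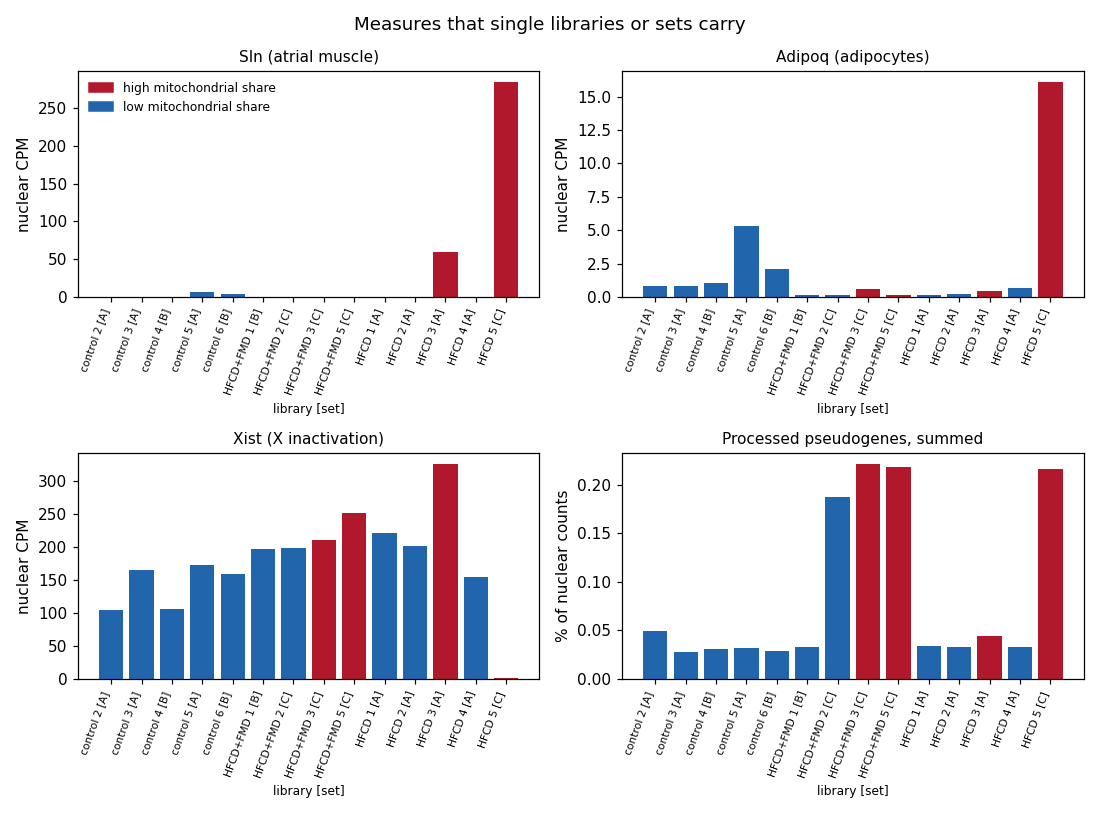
Bars show nuclear CPM of Sln, Adipoq and Xist and the summed share of processed pseudogenes in each heart library, red for high and blue for low, with the library set in brackets. Sln is high in HFCD replicates 3 and 5, Adipoq in HFCD replicate 5 alone, Xist is near 0 in HFCD replicate 5, and pseudogene shares are raised in the 4 libraries of set C.

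Messages of the cytosolic ribosome gave opposite values for close relatives. Of 67 cytosolic ribosomal protein genes 6 were higher and 17 lower, with a median log2 fold change of -0.37, and 4 and 10 with the sets in the model. Rps14 stood at 36.2, 36.7, 24.1 and 62.4 CPM against 87.4 to 260.9 CPM (-1.70, SE 0.29, adjusted p = 0.001176). Rpl28 stood at 6.97 to 9.86 CPM against 1.39 to 4.07 CPM (1.75, SE 0.29, adjusted p = 0.0008721), and Tpt1, a translationally controlled protein, at 15.2 to 30.4 CPM against 2.87 to 9.83 CPM (2.33, adjusted p = 0.0003091). Each separated the classes. These families have many processed copies, between which the counting could divide reads, so their values are uncertain.

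The class difference was then compared between the 2 diets that hold high libraries. The class-by-diet term passed for 0 of 13210 genes with edgeR, and 738 genes had an unadjusted p below 0.05. DESeq2 called 19 genes. Without HFCD replicate 3, which leaves HFCD replicate 5 as the lone high HFCD library, edgeR called 144. Esrra was lower by 1.67 in HFCD and by 1.70 in HFCD+FMD on the log2 scale, Cat higher by 1.02 and 0.82, and Cd68 higher by 1.73 and 0.96. A count of 0 does not show that the diets act alike, since each diet holds 2 high libraries.

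With edgeR, comparisons between diets gave 0 calls whether or not the class was in the model. HFCD against control gave 0 calls of 13210 with edgeR (unadjusted p below 0.05 for 1728 genes with the class term, 2912 without it and 2040 of 13095 in low libraries alone) and 160 with DESeq2. HFCD+FMD against HFCD gave 0 calls (2014, 1250 and 1230 genes unadjusted, in the same order) and 405 with DESeq2. Both comparisons use the HFCD libraries.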

How the data were processed

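Total RNA of mouse heart was extracted, depleted of ribosomal RNA and sequenced, per the labels' protocols. Raw counts deposited by the authors cover 13238 genes, 17 of them mt- genes, and are not normalized. The authors' deposited log2 values, which had a per-gene offset subtracted in each of 3 sets of libraries (to within 6.4e-09), served only to find the sets (A: control replicates 2, 3 and 5, HFCD replicates 1 to 4; B: control replicates 4 and 6, HFCD+FMD replicate 1; C: HFCD+FMD replicates 2, 3 and 5, HFCD replicate 5). STAR 2.5.3, mm10, R 3.5.3, limma and edgeR are named in the submitters' processing notes; the counter is not given in the sources used here. 0 per-sample columns were left out.

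The mt- genes were removed before library sizes and TMM scaling. Nuclear counts were fitted in edgeR 4.0.16 (R 4.3.3) with filterByExpr on diet, a robust quasi-likelihood test, two-sided, of class with diet in the model, and Benjamini-Hochberg adjustment at 0.05. Tested on simulated data for this comparison (13195 genes), the script recovered 71% of 100 genes changed by 1 on the log2 scale. It recovered 9% of 100 genes changed by 0.5, with 6 false calls. The simulated data held a far smaller share of changed genes than the 28.7% called here, and no library sets or GC trend. Recovery and false calls in the real data may therefore differ. Nuclear depth, 6934172 to 32900397 counts per library, limits the precision for genes of low CPM. Symbols are the deposited ones. Coordinates, GC content and coding sequences came from GENCODE M21 (GRCm38), and copies of mitochondrial transcripts were found with BLAST 2.17.0.

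The classes, members and gene lists were chosen with earlier results of these data known, so no count over a list is independent evidence. Genes to name had to pass, carry no predicted or clone symbol, reach 1 nuclear CPM in a class and keep their sign within both diets. Of these, the 12 largest rises, the 12 largest falls and at most 3 per list, by p, were taken, with a fixed panel whatever its result. Of the genes so named, 2 are not reported here. The text uses a subset of the others, chosen after their values were seen, and adds Polr2a, Nono, Atg4d and Xist. Alternatives were other scalings, filters, tools and covariates, single diets, the log2 ratio of mitochondrial to nuclear counts in place of the class, and each library left out. Removing the GC trend, leaving out HFCD replicate 5 with control replicate 2, and DESeq2 1.42.0 for the diet terms were added after seeing the data.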

Additional observations from a re-analysis of the deposited data

Results flagged for a closer look

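Measures of the text were checked within each class for a library far from the others, by a rule that flags about 1 in 20 groups by chance. Of 232 groups 46 were flagged, 22 of them for control replicate 2 among the low libraries and 11 for HFCD replicate 5 among the high ones. The part of these libraries in the results was not tested beyond leaving each out.

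Control replicate 2 was the highest low library for many genes of the text. In nuclear CPM it had 78.1 for Rexo2 (next 57.66), 305.2 for Ndufa1 (163.6), 1241 for Cyc1 (904.6), 3167 for Cox4i1 (2023), 192 for Atpif1 (112.6), 34.51 for Mrps11 (25.95), 39.46 for Timm17b (29.93), 172.3 for Fkbp8 (128.7), 18271 for Tnnt2 (11824), 144.9 for Esam (96.65) and 229.6 for Hba-a1 (96.56). It was the lowest for Lrpprc at 182.5 (251.1) and Atp2a2 at 10862 (17508). Its nuclear counts had a mean GC content of 50.82% (50.27%). Of them, 6.905% lay in nuclear respiratory chain genes (5.224%), 0.5917% in mitochondrial and 0.6729% in cytosolic ribosomal protein genes (0.4384% and 0.4672%), 15.16% in ventricular sarcomere genes (12.34%) and 2.554% in calcium and channel genes (3.83%). Smooth muscle genes took 0.6% (0.5117%), red blood cell genes 0.1743% (0.08307%) and skeletal muscle genes 0.4034% (0.2625%).

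HFCD replicate 5 stood away from the other 3 high libraries, in nuclear CPM, for Gabpb1 at 22.02 (nearest 31.87), Pink1 at 688.9 (418.1), Pdk4 at 6330 (796.5), Bmp10 at 1474 (4.584), Adipoq at 16.14 (0.562), Cfd at 48.37 (0.6557), Plin1 at 9.801 (0.9761), Hba-a1 at 158.3 (55.74) and Rpl28 at 9.858 (7.346). Red blood cell genes took 0.1644% of its nuclear counts (0.047%) and B, T and plasma cell genes 0.01128% (0.004731%).

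HFCD replicate 3 stood away from the other high libraries for Tpt1 at 15.2 CPM (28.65), Polr2a at 439.7 CPM (276.6), processed pseudogenes at 0.04476% of nuclear counts (0.2155%) and 13128 genes detected at the smallest nuclear depth (13197). HFCD+FMD replicate 2 was the highest low library for these last 2 measures, at 0.1875% (0.04912%) and 13208 genes (13157). Control replicate 5 was the highest low library, in CPM, for Sln at 6.726 (3.224), Mybphl at 7.786 (1.612), Fgf12 at 2.257 (1.172), Adipoq at 5.298 (2.125), Cfd at 9.445 (4.543) and Plin1 at 5.206 (2.638), and control replicate 3 for Polg at 109.8 (92.24).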

How the results depend on the processing

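The 3791 calls between classes became 2349 with the library sets in the model and 904 in the HFCD libraries alone, and 2522 to 4907 with 1 library left out (lowest without HFCD+FMD replicate 5, highest without control replicate 2). No gene called in both the main fit and an alternative changed direction. RLE scaling gave 3770 calls, DESeq2 4318, limma voom 3616, age in the model 4077, no diet term 5002, no filter 3809, and the log2 ratio of mitochondrial to nuclear counts 3497. The class-by-diet calls were 0 with edgeR, 19 with DESeq2 and 0 to 144 with 1 library left out. The diet calls were 0 with edgeR and 160 and 405 with DESeq2. Of the library properties 0 passed among HFCD and HFCD+FMD libraries, where even those at the smallest possible p did not pass. With controls included, where diet is not held, 9 passed. The cause of these changes was not tested.

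Of the 70 called genes of the text, 64 passed in every fit without 1 library that gave them a value. In every alternative that gave them a value 38 passed. Without HFCD replicate 5, 68 had a value and 62 passed, and Sln and Mybphl had no value. With the sets in the model 62 passed, with the GC trend removed 66, and in the HFCD libraries alone 39 of 63. Among genes that did not pass, which have no called direction, 3 passed with the opposite sign in an alternative: Pdk4 at -0.333 and Hba-a1 at -0.539 in the HFCD+FMD libraries alone, and Xist at 0.468 without HFCD replicate 5 and control replicate 2. No paired analysis was possible because the labels give no replicate numbers, and those used here follow accession order. Genes of a few CPM are limited by depth, most of all in HFCD replicate 3 with 6934172 nuclear counts.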

Other observations

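Of 18 genes of the daily clock 3 were higher and 2 lower in the high libraries, shares near the 13.6% and 15.1% of all nuclear genes. Nr1d1, a repressor of the clock's core loop, stood at 361.2, 243.6, 432.8 and 239.9 CPM in HFCD+FMD replicates 3 and 5 and HFCD replicates 3 and 5, against 138.3 to 260.2 CPM in the low libraries (log2 fold change 0.91, SE 0.19, edgeR adjusted p = 0.003184). Tef, a clock output factor, stood at 78.3 to 134.3 CPM against 127.9 to 251.8 CPM (-0.95, adjusted p = 0.001676), and Cry2, a repressor of the same loop, at 33.9 to 40.7 CPM against 36.8 to 61.4 CPM (-0.49, adjusted p = 0.008373). The ranges overlapped for all 3, and the hour at which hearts were taken is not given in the labels.

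Of 39 splicing genes 6 were higher and 3 lower, and with the GC trend taken out 5 and 9. U2af1, which recognises the end of introns, stood at 21.6, 19.05, 20.8 and 13.6 CPM against 4.28 to 11.0 CPM (log2 fold change 1.66, SE 0.26, edgeR adjusted p = 0.0006259). Snrpb, a core protein of the splicing particles, stood at 21.6 to 35.9 CPM against 45.3 to 82.4 CPM (-0.93, adjusted p = 0.0004059). Of 30 translation factors 4 were higher and 5 lower, again near the shares of all genes, and Eef2, which moves the ribosome along the message, stood at 1070 to 1699 CPM against 1808 to 2260 CPM (-0.62, adjusted p = 0.001969). These 3 genes separated the classes completely. Of 29 proteasome and ubiquitin genes 2 were higher and 9 lower, and 2 and 2 with the sets in the model. Of 22 immediate early genes, which respond fast to many stimuli, 2 were higher and 0 lower. With the sets in the model 0 passed in either direction. The share that was higher lay below the 13.6% of all nuclear genes. The median log2 fold change of the list was 0.613, with 21 of the 22 positive. Over all nuclear genes it was 0.006, with 6677 of 13210 positive. Most of the 22 did not pass, so their shared sign is only a description. Of 8 nuclear-retained noncoding RNAs 0 passed in either direction.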
